A study of Homo sapiens with 4 samples.

Results

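The 37 genes carried by the human mitochondrial genome were followed in prostate cancer cells that expressed a control shRNA or an shRNA against DDX52. They were chosen by symbol, as every listed gene whose symbol starts with MT-, and they made up 37 of the 60671 listed Ensembl genes. Of these, 13 encode proteins, 2 encode rRNAs and 22 encode tRNAs. In each of the 4 libraries 15 of them had a value above 0, namely all 13 protein genes and both rRNA genes.

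RNA-seq was performed on 22RV1 and PC3, both established human prostate carcinoma cell lines, infected with a lentivirus that expressed either a control shRNA (shCON) or an shRNA against the RNA helicase DDX52 (shDDX52) and selected with puromycin. The groups were 22RV1 shCON, 22RV1 shDDX52, PC3 shCON and PC3 shDDX52, with 1 library in each, and a single shRNA sequence was used against DDX52. With 1 library per group, no difference has a replicate check, no p-value was computed, and differences in culture or library between 2 groups cannot be told apart from the effect of the shRNA. Values are in TPM, a length-corrected measure of a gene's share of all transcripts in a library, and the number of reads behind them is unknown.

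With shDDX52 the TPM of DDX52 was 24.6% of the control in 22RV1 and 22.5% in PC3. KLK2, a kallikrein gene of prostate epithelium, had 32.6 TPM with shCON and 23.1 TPM with shDDX52 in 22RV1, and PC3 cells had a value of 0 in either library, as also for the kallikrein gene KLK3. Nuclear rRNA genes held 0.0872% to 3.13% of the TPM of a library. Their share was lower with shDDX52 in 22RV1 and higher in PC3.

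The mitochondrial genome is a small circle present in many copies per cell. Both of its strands are copied into long precursors by a dedicated RNA polymerase, and most mRNAs and rRNAs are released when the tRNAs that lie between them are cut out. The heavy-strand transcript gives both rRNAs, most tRNAs and all but a single mRNA, and the light-strand transcript gives MT-ND6 and the remaining tRNAs. The proteins are core subunits of complexes I, III, IV and V of oxidative phosphorylation, and all their other subunits come from nuclear genes. The annotation places 28 of the members on the plus strand, called heavy here (12 protein genes, both rRNA genes and 14 tRNA genes). It places 9 on the minus strand, called light here (MT-ND6 and 8 tRNA genes).

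Some of the mRNAs overlap or end within a codon, and their sequences are shown because the values of several of these genes differ from those of their neighbours. All are given as DNA letters, 5′ to 3′, from the GENCODE 29 transcripts of GRCh38, plus strand. MT-ATP8, whose TPM was the highest of the members in 3 libraries, is 207 bases long at chrM:8366-8572, and its last 46 bases, in capitals, are also the first 46 bases of MT-ATP6.
MT-ATP8: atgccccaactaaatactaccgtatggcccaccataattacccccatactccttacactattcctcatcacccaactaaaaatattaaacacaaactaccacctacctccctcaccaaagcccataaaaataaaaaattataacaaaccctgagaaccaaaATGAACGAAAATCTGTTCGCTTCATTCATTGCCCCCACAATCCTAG

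MT-ND4L, 297 bases long, runs in the same way into MT-ND4. The stretch across their junction, at chrM:10707-10819, has the 7 shared bases in capitals.
MT-ND4L/MT-ND4: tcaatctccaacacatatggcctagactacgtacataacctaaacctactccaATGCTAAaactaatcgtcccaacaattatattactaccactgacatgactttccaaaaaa

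MT-ATP6 and MT-CO3 meet at a single base with no tRNA between them. The end of MT-ATP6 has its stop codon in capitals, and the start of MT-CO3 has its start codon in capitals.
MT-ATP6 end: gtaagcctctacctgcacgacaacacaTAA
MT-CO3 start: ATGacccaccaatcacatgcctatcatata

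In 6 of the 13 protein genes the length is not a multiple of 3, so that the gene stops after the first or second base of a stop codon. Poly(A) addition is known to complete such codons. The last 30 bases of these 6 genes are given with the incomplete codon in capitals.
MT-ND1: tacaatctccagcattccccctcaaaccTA
MT-ND2: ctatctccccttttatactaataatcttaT
MT-CO3: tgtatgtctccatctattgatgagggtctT
MT-ND3: gactacaaaaaggattagactgaaccgaaT
MT-ND4: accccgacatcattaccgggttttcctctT
MT-CYB: taattgaaaacaaaatactcaaatgggccT

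The mitochondrial genes held a larger share of the TPM with shDDX52 in both cell lines. The protein genes carried nearly all of it. They took 9.44% of the TPM of 22RV1 shCON and 12.5% with shDDX52, and 7.68% and 9.76% in the same order in PC3. The rRNA genes took 0.371% of the TPM of 22RV1 shCON and 0.452% with shDDX52, and in PC3 these shares were 0.426% and 0.555%. Summed over the 13 protein genes, the TPM with shDDX52 was 1.33 times the control in 22RV1 and 1.26 times the control in PC3. Relative to the TPM of nuclear protein-coding genes, whose own share was 88.4% in PC3 shCON and 81.3% with shDDX52, these folds were 1.35 and 1.38. TPM gives shares of a library, so more mitochondrial RNA per cell and less of other RNA cannot be told apart.

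These shares depend on how length is counted. Each TPM was multiplied by the length of the gene's longest annotated transcript, as a rough stand-in for a share of reads. On this length-weighted scale the 37 genes came to 2.73% for 22RV1 shCON and 3.76% with shDDX52. In PC3 these shares were 2.74% and 3.45%. A nuclear gene may be expressed mainly as shorter transcripts, so its weight may be too large and the mitochondrial shares too low. Genes without an annotated length could not be weighted. The order of the libraries within each cell line was the same on both scales. The control libraries differed in TPM share, with 9.81% in 22RV1 against 8.10% in PC3, and were nearly level on the length-weighted scale.

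The mitochondrial mRNAs were among the most abundant RNAs in every library. All 15 members with a value were within the first 200 genes when genes were ranked by TPM. Among the first 10 genes, 22RV1 cells had 5 members with shCON and 6 with shDDX52, and PC3 cells had 3 and 5. MT-ATP8, a small subunit of ATP synthase (complex V), ranked 1 in both 22RV1 libraries and in PC3 shDDX52, and MT-CO2, a core subunit of cytochrome c oxidase (complex IV), ranked 1 in PC3 shCON. At the other end, MT-ND5, the longest of the mRNAs at 1812 bases and a core subunit of complex I, had the lowest TPM of the 13 protein genes in all 4 libraries.

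**Figure D1:**
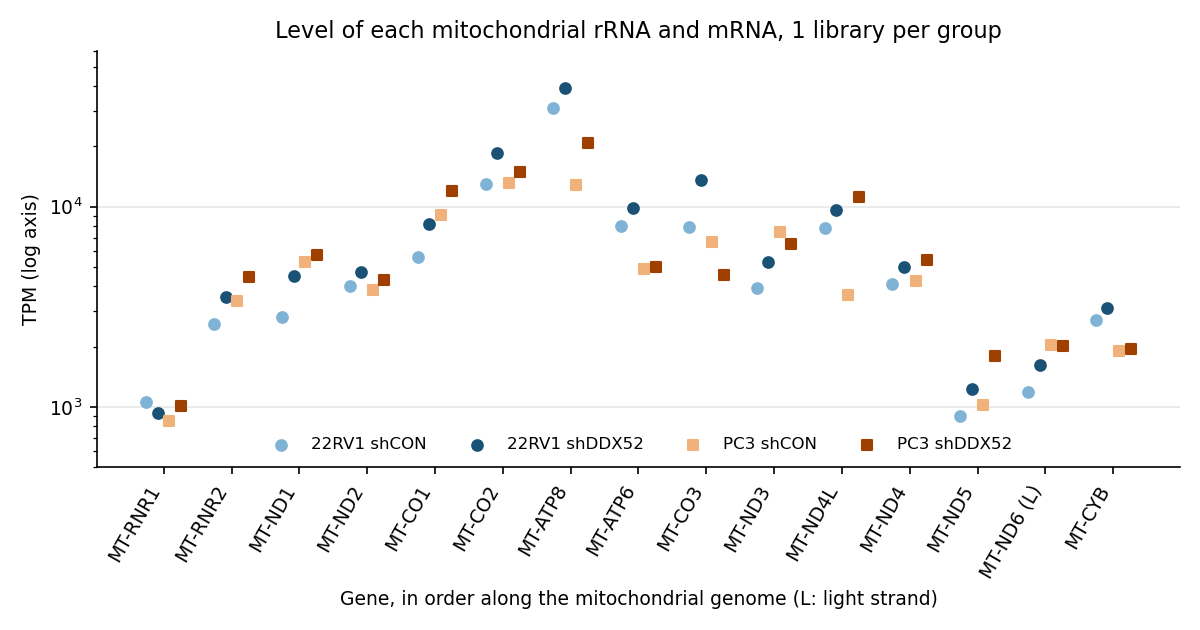
TPM (log axis) of the 13 protein genes and 2 rRNA genes in order along the mitochondrial genome, with 1 point per library and no error, since each group has 1 library. MT-ATP8 ranges from 12885 to 39118 TPM and MT-ND5 from 902 to 1795 TPM, and the PC3 shCON point of MT-ND4L (3637 TPM) lies below the other 3 libraries.

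In 22RV1 cells, all 13 protein genes had a higher TPM with shDDX52. The log2 ratio, log2((TPM shDDX52 + 1) / (TPM shCON + 1)), had a median of 0.43 over these genes and ranged from 0.20 to 0.77. The 14438 genes that reached 1 TPM in either 22RV1 library had a median of −0.076, and 40.9% of them were higher with shDDX52. Of the 13 genes, 8 were at least 25% higher, against 12.7% of all genes. None was 2-fold higher or lower, against 2.24% and 2.86% of all genes. Abundant nuclear protein-coding genes, 139 with a mean of at least 900 TPM, had a median of −0.029. Of these, 42.4% were higher and 5.04% were at least 25% higher. The cut was chosen after the values were seen, near the lowest TPM of the 13 genes (MT-ND5, 902 TPM in 22RV1 shCON). The set was not matched in level to the more abundant members.

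The complex IV genes had the largest log2 ratios as a group. MT-CO1, the catalytic subunit that binds oxygen, was at 5620 TPM in the control and 8162 TPM with shDDX52. MT-CO2, which accepts electrons from cytochrome c, was 13039 and 18578 TPM. MT-CO3, the third core subunit, was 7936 and 13513 TPM, which is 1.70 times the control and the largest log2 ratio of the members in this cell line (0.77). The summed TPM of the 3 genes was 1.51 times the control and made up 44.0% of the gain in TPM of the 13 protein genes.

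The complex I genes were higher to different degrees in 22RV1. MT-ND1, a membrane subunit near the site where ubiquinone binds, was at 2816 TPM in the control and 4495 TPM with shDDX52, a log2 ratio of 0.67. MT-ND3, MT-ND5 and MT-ND6 had log2 ratios of 0.43, 0.44 and 0.44. MT-ND2, MT-ND4 and MT-ND4L were between 1.18 and 1.23 times the control. MT-CYB, cytochrome b and the only mitochondrially encoded subunit of complex III, was 2709 and 3111 TPM and had the smallest log2 ratio of the 13 (0.20). Of the complex V genes, MT-ATP6, which forms the proton path of the enzyme, was 7959 and 9823 TPM, and MT-ATP8 was 31225 and 39118 TPM.

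In PC3 cells the protein genes were less uniform. The median log2 ratio was 0.16, with a range from −0.55 to 1.62, and 10 of the 13 genes were higher with shDDX52. The 14262 genes that reached 1 TPM in either PC3 library had a median of −0.036, and 46.3% of them were higher. Of the 13, 5 were at least 25% higher, against 19.7% of all genes, and MT-CO3 alone was at least 20% lower, against 22.5%. MT-ND4L alone was 2-fold higher, against 2.86% of all genes, and none was 2-fold lower, against 3.44%. Among the 139 abundant nuclear protein-coding genes the PC3 median was −0.14, 24.5% were higher and 3.6% were at least 25% higher. Scaling to nuclear protein-coding genes moved the median of all PC3 genes up by 0.12 and that of the 13 genes to 0.29. On that scale 3942 of all genes were at least 25% higher and 2351 at least 20% lower, against 2809 and 3207 on the deposited scale, while the counts of 5 and 1 among the 13 were the same.

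MT-ND4L, a small membrane subunit of complex I, differed most. It was 3637 TPM in PC3 shCON and 11145 TPM in PC3 shDDX52, which is 3.06 times the control. MT-ND5, a subunit of the proton-pumping arm of complex I, was 1026 and 1795 TPM, a log2 ratio of 0.81. MT-ATP8 was 12885 and 20814 TPM, a log2 ratio of 0.69. MT-CO1 was 9053 and 11987 TPM, and MT-ND4 was 4255 and 5407 TPM. These 5 genes were the ones at least 25% higher.

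MT-CO3 went the other way in PC3, from 6691 TPM with shCON to 4580 TPM with shDDX52, a log2 ratio of −0.55. MT-ND3 was 7458 and 6478 TPM, a log2 ratio of −0.20, which shrank to −0.074 when TPM was scaled to nuclear protein-coding genes. MT-ATP6 (4880 and 4982 TPM), MT-CYB (1896 and 1943 TPM) and MT-ND6 (2027 and 2010 TPM) were nearly level in the PC3 libraries. On the rescaled values their log2 ratios were 0.16, 0.16 and 0.12, so that the sign of MT-ND6 turned to higher. MT-CO3 and MT-ND3 are the only protein genes between MT-ATP6 and MT-ND4L on the heavy strand, and their neighbours on either side were higher or level in PC3.

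MT-ATP8 and MT-ND4L are the shortest protein genes of the mitochondrial genome, and their share of the PC3 difference depended on the scale. The 13 protein genes together gained 20010 TPM in PC3, of which MT-ATP8 and MT-ND4L gained 15437 TPM, or 77.1%. In 22RV1 the same genes gained 9680 of 31008 TPM, or 31.2%. Without them, the summed TPM of the other 11 protein genes was 1.39 times the control in 22RV1 and 1.08 times the control in PC3, and the median log2 ratios were 0.44 and 0.12. On the length-weighted scale MT-ATP8 and MT-ND4L held 29.1% of the PC3 gain and 10.6% of the 22RV1 gain, and the other 11 genes were 1.19 and 1.40 times the control in that order.

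**Figure D2:**
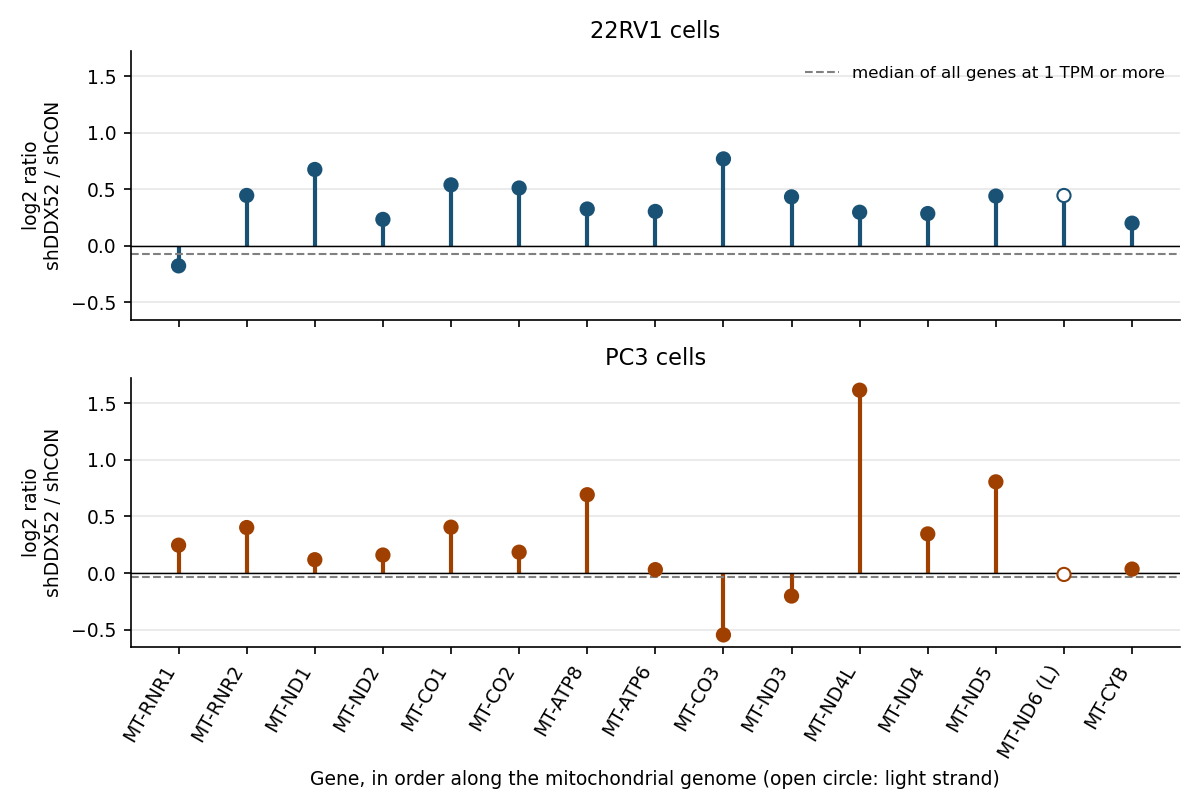
Log2 ratio of shDDX52 over shCON for the 15 members with a value, in order along the mitochondrial genome, for 22RV1 (top) and PC3 (bottom). Open circles mark the light-strand gene MT-ND6, the dashed lines are the medians of all genes with at least 1 TPM (−0.076 and −0.036), and MT-CO3 and MT-ND3 lie above 0 in 22RV1 and below 0 in PC3.

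In the overlapping pairs shown above, PC3 shCON differed from the other 3 libraries. The TPM of MT-ATP8 was 3.92 times that of MT-ATP6 in control 22RV1 cells and 3.98 times with shDDX52, and in PC3 it was 2.64 times with shCON but 4.18 times with shDDX52. The TPM of MT-ND4L was 1.91 times that of MT-ND4 in control 22RV1 cells and 1.92 times with shDDX52, and in PC3 it was 0.855 times with shCON but 2.06 times with shDDX52. The genes of each pair are known to share an mRNA.

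Sums over short nuclear genes differed between libraries as well. Nuclear genes whose longest annotated transcript was 251 to 300 bases, the length class of MT-ND4L, summed to 1854 TPM in PC3 shCON and 14141 TPM in PC3 shDDX52, and to 2010 and 779 TPM in 22RV1. In PC3, 3 genes carried 97.5% of that difference, and of the 79 genes of this class that reached 1 TPM there 43 were higher and 36 lower, with a median log2 ratio of 0.15. Nuclear genes of 201 to 250 bases, the length class of MT-ATP8, summed to 1804 and 1624 TPM in PC3 and to 1284 and 1429 TPM in 22RV1. The sums differed more for nuclear genes of 151 to 200 bases, a class without members. They were 2508 and 21810 TPM in PC3 and 9997 and 2066 TPM in 22RV1, shCON first. Sums over small nuclear RNA (snRNA) genes of any length also differed, with 214 and 6175 TPM in PC3 and 3781 and 295 TPM in 22RV1. Those over nuclear rRNA genes were 914 and 30820 TPM in PC3 and 11905 and 864 TPM in 22RV1. How much of each length class these RNA types made up was not tested. The part of transcript length in the values of MT-ATP8 and MT-ND4L was not tested.

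The make-up of mitochondrial mRNA was closer between shCON and shDDX52 in 22RV1 than between the cell lines. MT-ATP8 made up 33.5% of the TPM of the 13 protein genes in control 22RV1 cells and 31.5% with shDDX52, while in PC3 it made up 16.9% with shCON and 21.7% with shDDX52. MT-CO1 made up 6.03% and 6.57% of 22RV1, shCON first, and 11.9% and 12.5% of PC3. The share of MT-CO3 was larger with shDDX52 in 22RV1 (10.9% after 8.51%) and smaller in PC3 (4.77% after 8.80%). That of MT-ND4L was 7.74% after 8.40% in 22RV1 and 11.6% after 4.78% in PC3. Across the 13 genes, Spearman's rho was 0.978 between the 22RV1 libraries and 0.841 between the PC3 libraries. Between a 22RV1 and a PC3 library it was 0.731 to 0.791. Pearson's r of log2 TPM was 0.992, 0.884 and 0.845 to 0.877 in that order. By r, the PC3 libraries were thus hardly closer to each other than some pairs across the cell lines. These coefficients are descriptions across genes of shared precursors, which are not independent of each other.

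**Figure D3:**
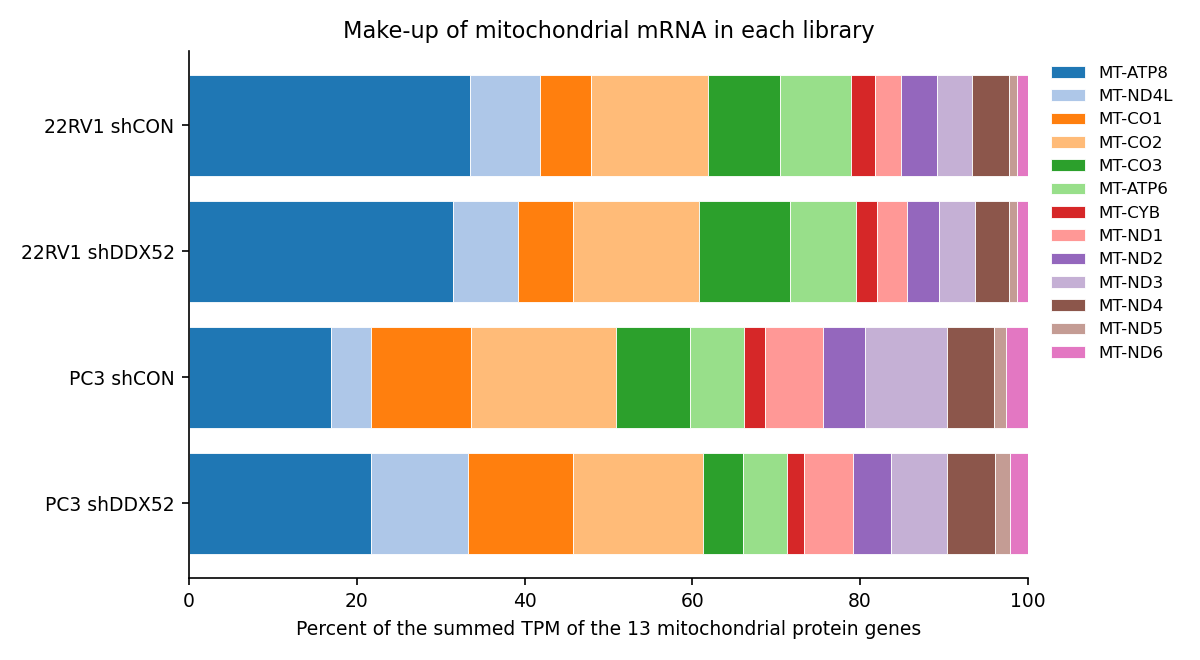
Share (percent) of each gene in the summed TPM of the 13 mitochondrial protein genes, with 1 bar per library. The MT-ATP8 segment, at the left, takes 33.5% and 31.5% of the 22RV1 bars and 16.9% and 21.7% of the PC3 bars.

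Between the control libraries, both complex V genes were lower in PC3, and 5 of the 7 complex I genes were higher, of which MT-ND4 turned to lower (−0.011) when scaled to nuclear protein-coding genes. MT-ATP8 was 0.413 times and MT-ATP6 0.613 times as high in PC3 shCON as in 22RV1 shCON, and MT-ND4L was 0.464 times as high. MT-ND3, MT-ND1, MT-ND6 and MT-CO1 were 1.90, 1.87, 1.70 and 1.61 times as high in PC3 shCON. The median log2 ratio of PC3 over 22RV1 was 0.0087 over the 13 genes (−0.052 when scaled to nuclear protein-coding genes) and −0.067 over 15727 genes. Of the 13, 7 were higher in PC3, against 47.6% of all genes, and 6 lower, against 52.3%. At least 25% higher were 4, against 36.9% of all genes, and at least 20% lower were 4, against 40.9%. None was 2-fold higher, against 19.9%, and 2 were 2-fold lower, against 21.3%, so these counts were near or under the background. The tables of the cell lines may have been normalized separately, which limits any level set across them.

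The rRNA genes differed from each other. MT-RNR2, the 16S rRNA of the large mitochondrial ribosomal subunit, had 2604 TPM in 22RV1 with shCON and 3545 TPM with shDDX52, and 3371 and 4453 TPM in PC3, with log2 ratios of 0.44 and 0.40. MT-RNR1, the 12S rRNA of the small subunit, was 1060 and 937 TPM in 22RV1 and 850 and 1009 TPM in PC3, with log2 ratios of −0.18 and 0.25. MT-RNR2 was thus higher with shDDX52 in both cell lines and MT-RNR1 only in PC3. The ratio of MT-RNR2 to MT-RNR1 was 2.46 in control 22RV1 cells, the lowest of the libraries, and 3.78 with shDDX52. In PC3 it was 3.96 with shCON and 4.41 with shDDX52.

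Both mitochondrial rRNAs come first on the heavy strand, before every mRNA, and in living cells they far outnumber the mRNAs. Here their summed TPM was 3.93% of that of the 13 protein genes in control 22RV1 cells and 3.61% with shDDX52, and 5.55% and 5.69% in PC3. Whether the libraries were selected for poly(A) RNA is not given in the sources used here. The nuclear rRNA genes varied far more, with 11905 TPM in 22RV1 shCON, 864 TPM with shDDX52, and 914 and 30820 TPM in PC3. The corresponding sums of the mitochondrial rRNAs were 3664, 4482, 4221 and 5462 TPM.

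The light strand was represented by MT-ND6 alone, a complex I subunit whose mRNA is known to lack a poly(A) tail. It was 1191 and 1620 TPM in 22RV1, 1.36 times the control, where the median log2 ratio of the 12 heavy-strand protein genes was 0.38. In PC3 it was 0.991 times the control (1.08 times when scaled to nuclear protein-coding genes), where that median was 0.17. MT-ND6 held 1.28% and 1.30% of the TPM of the protein genes in 22RV1 and 2.67% and 2.09% in PC3. Its region is also covered by the heavy-strand precursor, and no source used here states that reads were counted by strand, so reads from the opposite strand cannot be told apart from MT-ND6.

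All 22 tRNA genes, 14 of the heavy and 8 of the light strand, were listed at 0 in all 4 libraries. They are 59 to 75 bases long. The shortest, MT-TS2 (a serine tRNA at chrM:12207-12265), is shown for its size.
MT-TS2: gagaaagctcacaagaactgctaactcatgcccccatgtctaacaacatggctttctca

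Short nuclear genes were also mostly listed at 0. Of the 3031 nuclear genes whose longest annotated transcript is at most 100 bases, 2 had a value above 0 in any library, which is 0.0660%. Of the 985 nuclear genes of 151 to 200 bases, 81 had a value above 0, and of the 18717 with more than 2000 bases 16330 did. No level of the tRNAs can be read from these values.

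The nuclear-encoded partners of the mitochondrial proteins did not show the higher values. Of 78 nuclear-encoded subunits of complexes I to V, 51 were lower with shDDX52 in 22RV1, against 58.8% of all genes. Their median log2 ratio there was −0.091, close to −0.076 for all genes, and their summed TPM was nearly level (40299 and 40606). In PC3, 73 of the 78 were lower, against 53.5% of all genes. The median there was −0.25, against −0.036 for all genes, and the summed TPM was 32055 with shCON and 27743 with shDDX52. Of the 139 abundant nuclear protein-coding genes, 57.6% were lower in 22RV1 and 75.5% in PC3, with medians of −0.029 and −0.14. At least 20% lower were 6.47% and 17.3% of those 139. The values of the 78 are on the deposited scale. Scaling to nuclear protein-coding genes, which moved the median of all PC3 genes up by 0.12, was not applied to them. At least 20% lower were 7 of the 78 genes in 22RV1, against 22.6% of all genes, and 27 in PC3, against 22.5%. In 22RV1, NDUFB7 alone was at least 25% higher, from 788 to 1014 TPM. NDUFA9 in 22RV1, from 100.01 to 72.5 TPM, and NDUFA5 in PC3, from 23.1 to 13.8 TPM, had the lowest log2 ratios. All 3 are complex I subunits.

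By complex, the mitochondrially encoded subunits had the higher median in each of the 4 complexes that hold them. In complex I the median was 0.43 for 7 mitochondrial genes and 0.0070 for 37 nuclear genes in 22RV1, and 0.16 and −0.19 in PC3. In complex IV it was 0.54 for 3 mitochondrial and −0.026 for 11 nuclear genes in 22RV1, and 0.18 and −0.27 in PC3. In complex V it was 0.31 for 2 mitochondrial and −0.21 for 17 nuclear genes in 22RV1, and 0.36 and −0.38 in PC3. MT-CYB had 0.20 and 0.035, against medians of −0.10 and −0.34 over 9 nuclear complex III genes. MT-CO3 in PC3 (−0.55) lay within the range of the nuclear complex IV genes, from −0.71 to −0.036.

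**Figure D4:**
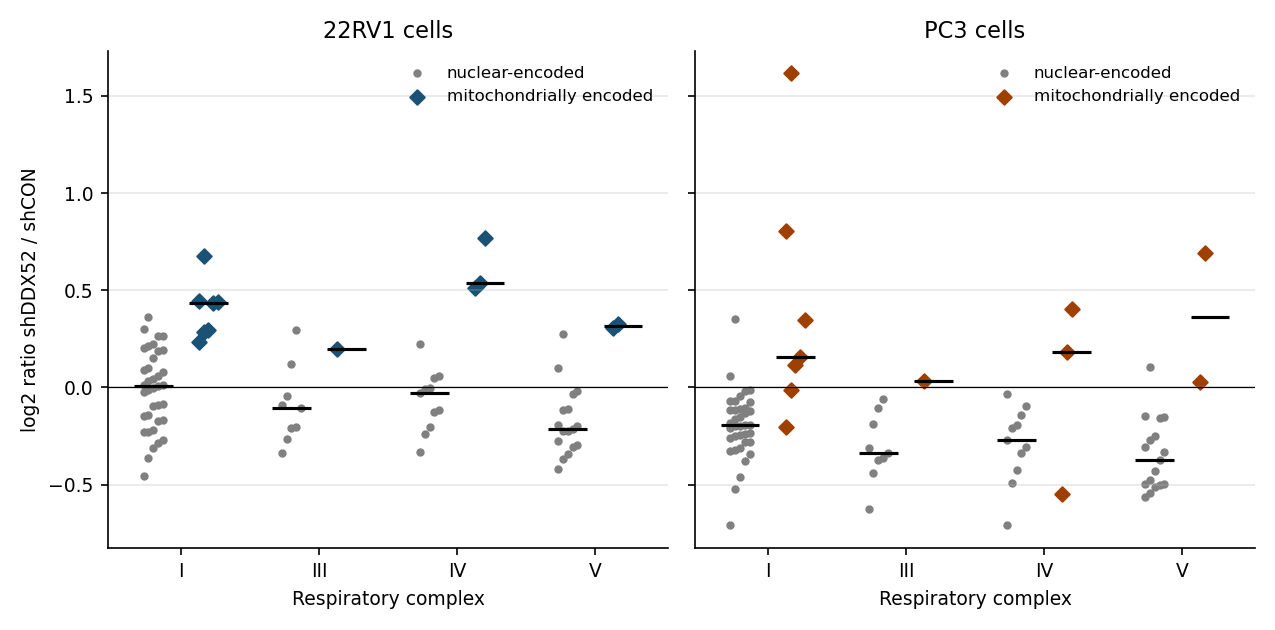
Log2 ratio of shDDX52 over shCON for nuclear-encoded (grey points) and mitochondrially encoded (coloured diamonds) subunits of complexes I, III, IV and V, with black bars at the medians and positions within a column spread only for legibility. In 22RV1 all 13 diamonds lie above 0, and in PC3 the diamond at 1.62 is MT-ND4L and that at −0.55 is MT-CO3.

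The nuclear genes that copy, transcribe, cut, modify and degrade mitochondrial nucleic acids were followed as a list of 67, of which 66 reached 1 TPM in each cell line. Of these, 50 were lower with shDDX52 in 22RV1 and 55 in PC3, with medians of −0.094 and −0.24, against 58.8% and 53.5% of all genes lower. At least 20% lower were 15 in 22RV1, close to the background of 22.6%, and 19 in PC3, against 22.5%. At least 25% higher were 0 in 22RV1, against 12.7% of all genes, and 3 in PC3, against 19.7%. None was 2-fold higher, against 2.24% of all genes in 22RV1 and 2.86% in PC3, or 2-fold lower, against 2.86% and 3.44%. The values of this list and its parts are on the deposited scale. Scaling to nuclear protein-coding genes, which moved the median of all PC3 genes up by 0.12, was not applied to them.

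POLRMT, the mitochondrial RNA polymerase, had 124 TPM in control 22RV1 cells and 116 TPM with shDDX52, and 58.7 and 49.7 TPM in PC3. TFAM, which packs mitochondrial DNA and starts transcription, was 6.80 and 6.46 TPM in 22RV1 and 24.5 and 24.8 TPM in PC3. TFB2M, its partner at the promoter, was 16.8 and 16.7 TPM in 22RV1 and 30.1 and 22.6 TPM in PC3. These log2 ratios lay between −0.40 and 0.016. Among genes with at least 5 TPM, TEFM, the elongation factor, was 8.86 and 4.44 TPM in 22RV1, the lowest log2 ratio of the list there (−0.86), and MRPL12, a ribosomal protein that also binds POLRMT, had the highest of the transcription genes, with 466 and 533 TPM. On the deposited scale, 2 of the 10 transcription genes were at least 20% lower in 22RV1, against 22.6% of all genes. In PC3, 6 of the 10 were, against 22.5%, and the medians were −0.082 in 22RV1 and −0.40 in PC3. MTERF4, a ribosome assembly factor of the terminator family, was 9.19 and 5.89 TPM there.

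LRPPRC and SLIRP form the complex that stabilizes mitochondrial mRNAs. LRPPRC was 12.03 and 10.6 TPM in 22RV1 and 18.6 and 17.3 TPM in PC3, and SLIRP was 485 and 445 TPM in 22RV1 and 461 and 327 TPM in PC3. SUPV3L1, the helicase of the mitochondrial RNA-degrading complex, was 71.8 and 39.0 TPM in PC3, the lowest log2 ratio of the list there (−0.86). TRMT10C, a subunit of the enzyme that cuts the 5′ end of mitochondrial tRNAs, was 15.3 and 15.2 TPM in 22RV1 and 30.2 and 16.96 TPM in PC3. PRORP, its nuclease, was 5.59 and 3.80 TPM in 22RV1, and HSD17B10, another of its subunits, was 135 and 147 TPM in PC3. PTCD3 and FASTKD5 had the highest and lowest log2 ratios of the RNA stability genes with at least 5 TPM in 22RV1, 0.27 and −0.43, and PTCD1 the highest in PC3, 0.22.

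The genes of the remaining steps are described by those with at least 5 TPM, and their counts of lower genes stand against 58.8% of all genes in 22RV1 and 53.5% in PC3. Of the 18 rRNA and tRNA modification genes, 13 were lower in 22RV1, where MTO1, a tRNA-modifying enzyme, was 7.15 and 4.17 TPM, and 15 in PC3, where PUS1, a pseudouridine synthase, was 64.8 and 38.7 TPM. MRM2, an rRNA methyltransferase, had the highest log2 ratio of them in 22RV1 (0.26) and NSUN4, another, in PC3 (0.44). Of the 8 replication genes, 6 and 7 were lower, and POLG, the mitochondrial DNA polymerase, was 39.0 and 45.2 TPM in 22RV1. PRIMPOL, a primase, was 5.65 and 3.65 TPM in 22RV1, and in PC3 TOP3A, a topoisomerase, was 6.09 and 8.15 TPM and POLG2, the accessory subunit of the polymerase, 11.2 and 9.13 TPM. Of the 7 regulators of mitochondrial biogenesis at 1 TPM, 6 and 4 were lower, and YY1, a transcription factor, was 31.7 and 20.2 TPM in 22RV1 and 23.6 and 26.7 TPM in PC3. GABPB1, a subunit of the factor NRF-2, was 9.11 and 10.9 TPM in 22RV1, and PPRC1, a coactivator, 27.6 and 20.3 TPM in PC3.

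The nuclear genome holds copies of mitochondrial genes, and 404 such genes were listed by symbol, of which 33 had a value above 0 and 7 reached 1 TPM. Their TPM summed to between 0.508% and 0.704% of that of the 37 members. MTATP6P1, on chromosome 1 (chr1:633696-634376, GRCh38), held most of it, with 611 TPM in control 22RV1 cells and 724 TPM with shDDX52, and 419.6 and 378 TPM in PC3. It is as long as MT-ATP6 (681 bases) and differs from it at 10 bases, an identity of 98.5%. Their longest identical run, at chrM:8719-8859 in MT-ATP6, is 141 bases and is shown because a read that falls within it fits both genes.
MT-ATP6/MTATP6P1: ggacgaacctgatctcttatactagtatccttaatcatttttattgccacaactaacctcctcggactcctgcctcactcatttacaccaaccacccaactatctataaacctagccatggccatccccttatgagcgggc

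The most abundant nuclear copies, MTATP6P1 and MTCO1P12, varied little in proportion to their mitochondrial counterparts. MTATP6P1 was 7.67% of MT-ATP6 in control 22RV1 cells and 7.37% with shDDX52, and 8.60% and 7.59% in PC3. MTCO1P12, which shares 98.7% of its aligned bases with MT-CO1, was 0.825%, 0.786%, 0.833% and 0.861% of it in the same order. MTND2P28, MTND6P3 and MTND6P35, the next in level, were each under 1% of their counterpart in every library. How reads that fit both a mitochondrial gene and a nuclear copy were assigned is not given in the sources used here, so both values of such a pair are uncertain to that extent.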

How the data were processed

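RNA of 22RV1 and PC3 cells with shCON or shDDX52 was sequenced, with 1 library per group. The deposited values are TPM for each Ensembl gene, made by the authors through a sequencing company's cloud service. The submitters' processing notes name CASAVA, HISAT2 and hg19. The annotation, the quantification program and any filter are not given in the sources used here. TPM keeps no depth, so no interval was computed, and a value of a short gene depends on how its effective length was set. Of 60671 identifiers, 42020 had a symbol and 58453 were in GENCODE 29 (GRCh38), which gave type, length, strand and position by identifier, and no coordinates were converted.

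Log2 ratios used a pseudocount of 1 TPM, which understates the change of low genes, for genes that reached 1 TPM in at least 1 of the libraries compared. Genes at least 25% higher, at least 20% lower (the inverse fold) or past 2-fold were counted on that scale, without a test. The counting was run on simulated data, made from control values by known folds without noise. That run checks the arithmetic only and gives no rate of false calls. Any member could be named, with the highest and lowest genes of each list with at least 5 TPM, POLRMT, TFAM, TFB2M, LRPPRC, SLIRP, the 5 nuclear copies with the highest mean TPM, and DDX52. KLK2 and KLK3 were named as a check of the cell lines. Some genes that this rule covers are not reported here. The members and lists were chosen with earlier results of these data known. Alternatives were another pseudocount, filters, scalings and centring. The set without MT-ATP8 and MT-ND4L and the set of abundant nuclear genes were chosen with their values in view. Sequences were aligned globally with Biopython 1.88, under Python 3.11.15, numpy 2.4.6 and pandas 2.3.3.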

Additional observations from a re-analysis of the deposited data

Results flagged for a closer look

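Of the members, 4 had log2 ratios of shDDX52 over shCON with opposite signs in the cell lines. MT-CO3 had 0.77 in 22RV1 and −0.55 in PC3. MT-ND3 had 0.43 in 22RV1 and −0.20 in PC3. MT-RNR1 had −0.18 in 22RV1 and 0.25 in PC3. MT-ND6 had 0.44 in 22RV1 and −0.013 in PC3, and its sign in PC3 turned under other scalings. With 1 library per group, these differences between the cell lines were not tested.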

How the results depend on the processing

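The 65 values gave 246 values when recomputed under the alternatives, and 1 library per group left nothing to omit. No paired analysis was possible because each group has 1 library. A log2 value was taken as moved past 0.1 and a share or count past 1.5 times. The median of the 13 protein genes stayed between 0.41 and 0.51 in 22RV1 and between 0.12 and 0.29 in PC3. Rescaling to nuclear protein-coding genes moved the PC3 values to 0.29 for that median, 0.38 for MT-RNR1 and 0.53 for MT-RNR2. The same scaling reversed the median of PC3 over 22RV1 controls, and with it MT-CO2, to −0.052, MT-ND4 in that comparison to −0.011, and MT-ND6 in PC3 to 0.12. Leaving out nuclear rRNA genes reversed the control median and MT-CO2 to −0.012 and MT-ND6 in PC3 to 0.041. Centring on all genes reversed MT-ND6 in PC3 to 0.024 and MT-ND2 between the controls to 0.012. Weighting by the length of the longest annotated transcript moved the shares to 2.73% and 3.76% in 22RV1 and to 2.74% and 3.45% in PC3. All 22 tRNA genes were at 0 under every filter and scaling run, so none passed the filter and no log2 ratio is given for them.

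The background counts moved by construction with the genes admitted. With at least 5 TPM, 955 genes were at least 25% higher and 1873 at least 20% lower in 22RV1, and 1627 and 2108 in PC3. At 2-fold the counts were 131 and 169 in 22RV1, 211 and 238 in PC3, and 2158 lower between the controls. With a pseudocount of 0.1 TPM, 579 genes were at least 2-fold higher and 786 lower in 22RV1, and 733 and 847 in PC3. The depth of the libraries is unknown, so how far it limits any value could not be judged.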
